A study of Mus musculus with 12 samples.

Results

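The TNF superfamily consists of ligands, most of them trimers on the cell surface that can be shed, and of the receptors that bind them. Members were all probes of the normalized array table whose symbol is Tnf, or Tnfsf or Tnfrsf followed by a digit. They were 44 of 21004 probes and 26 of 15434 gene symbols. One symbol, Tnfsf5ip1, is the older name of a proteasome assembly chaperone and not a superfamily gene, which left 41 probes of 25 genes, with 11 probes for 7 ligands and 30 probes for 18 receptors. Ligands and receptors with other symbols, such as Fas, were not members and are described separately. On the whole array of 45281 probes the rule found 67 probes of 37 symbols. Of the 23 probes outside the normalized table, 22 were detected on none of the 12 arrays, and a Tnfsf8 probe was detected on 1. The table holds every probe that was detected on at least 3 arrays, and some detected on fewer, 1 member probe among them, so a probe seen only post injury could enter it through the injured arrays alone. Detection means a deposited detection p-value under 0.05.

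RNA came from hip cartilage of C57BL6 mice of 4 to 6 weeks, wild type (WT) or lacking Mapk9 (Mapk9 KO), which encodes the c-Jun N-terminal kinase JNK2. The femoral epiphysis was torn off, and the cartilage was either snap-frozen at once (control) or cultured in serum-free medium for 4 h (injured). The 4 groups held 3 arrays each, and each replicate pooled 6 hips of 3 animals. Control cartilage was never cultured, so injury and 4 h of culture cannot be told apart. How the Mapk9 allele was made is not given in the sources used here.

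Between 16930 and 18969 probes were detected per array. The higher of the Mapk9 probes in signal averaged 10.76 on the log2 scale in WT control and 9.19 in KO control hips (log2 difference -1.57, limma adjusted p = 0.0151) and was still detected on every KO array, while the other was undetected on all KO arrays. Of the chondrocyte markers, all 8 measured were detected on all 12 arrays. Markers of other cells were also detected on all 12 arrays, so the tissue held other cells. These were 8 of 10 measured for skeletal muscle, 4 of 5 for osteoclasts and 7 of 9 for macrophages. Among blood cells they were 9 of 9 for neutrophils, 8 of 8 for erythroid cells, 6 of 7 for B cells and 2 of 6 for T cells. In bulk tissue, fewer cells of a type and less RNA per cell cannot be told apart.

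TNF family receptors fall into classes by what their cytoplasmic part does. Death domain receptors can recruit FADD or TRADD and start cell death or inflammatory signalling. Other receptors bind TRAF adaptors and signal to NF-kappaB and to kinases such as JNK. Decoy receptors bind a ligand without passing on a signal. In skeletal tissue the family is best known for RANKL, RANK and osteoprotegerin, which control osteoclast formation, and for TNF, an inflammatory cytokine that promotes cartilage breakdown.

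Post injury, the superfamily genes that were significantly modulated were mainly upregulated in WT cartilage. Upregulated were 10 genes, the ligand genes Tnf, Tnfsf9, Tnfsf13b and Tnfsf14 and the receptor genes Tnfrsf10b, Tnfrsf11b, Tnfrsf12a, Tnfrsf18, Tnfrsf21 and Tnfrsf26. Downregulated were the receptor genes Tnfrsf11a and Tnfrsf19. In probes, 17 of 44 members passed the threshold, which asked for a fold change over 2 together with an adjusted p below 0.05, 15 upregulated and 2 downregulated, or 38.6% of member probes against 14.7% of all probes on the table (7.55% upregulated and 7.14% downregulated). In Mapk9 KO, 22 of 44 passed, 20 upregulated and 2 downregulated, or 50% against 18.7% of all probes (9.59% and 9.14%). All 17 probes that passed in WT also passed in KO. The median log2 change of the member probes was 0.54 in WT and 0.81 in KO, beside -0.024 and -0.017 for all probes. These counts and medians only describe the members, since 9 of the 17 probes were undetected on all WT control arrays and stood in the table through their injured arrays. Probes of 1 gene that share at least 45 of their 50 bases measure the same stretch of RNA. Counted once each, the members were 38 targets, of which 14 passed in WT and 17 in KO.

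**Figure D1:**
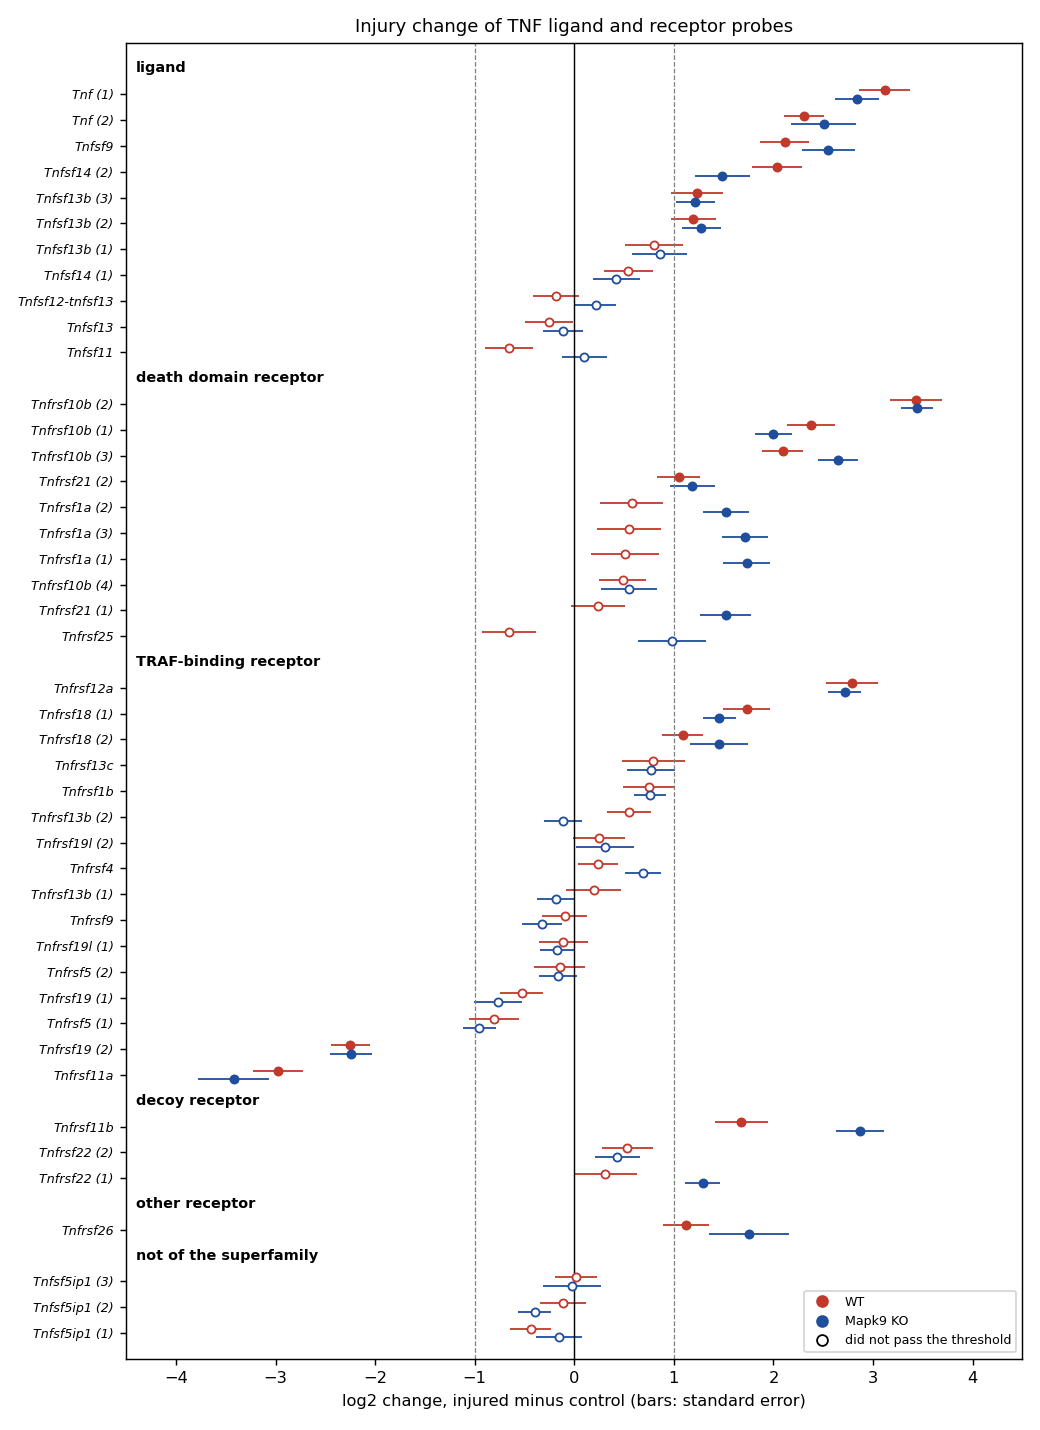
Log2 change (injured minus control) of each of the 44 member probes, by role, in WT (red) and Mapk9 KO (blue), with bars for the standard error and dashed lines at the fold limit. Filled points passed the threshold, with 15 upregulated and 2 downregulated probes in WT and 20 and 2 in KO. Numbers in brackets tell probes of 1 gene apart, and changes of probes undetected in control hips are fitted values, not measured folds.

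Values below are normalized log2 values on the arrays of replicates 1, 2 and 3. Where a probe was undetected on arrays of the lower group, a fold is given as a lower bound. The bound sets the mean of the higher group against the mean of, per array, the dimmest detected probe of that array, or the probe itself where it read higher. Each bound holds for the deposited normalization and includes no sampling error. Adjusted p-values are from limma, by the Benjamini-Hochberg method across the 21004 probes. Where a bound is under 2, the measured values alone do not place the change above the fold limit.

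Among the ligands, 6 of 11 probes, for 4 of 7 genes, passed in WT and the same number in KO, all upregulated. Tnf encodes TNF itself. Its first probe had 3.72, 4.25 and 3.53 in WT control and 7.20, 7.05 and 6.59 in WT injured hips, and 4.00, 3.88 and 4.31 in KO control and 6.91, 7.27 and 6.52 in KO injured hips. The probe was undetected on all 6 control arrays and detected on all 6 injured arrays, and the groups did not overlap in either genotype. Tnf rose at least 2.15-fold in WT (adjusted p = 3.38e-05) and at least 1.95-fold in KO (adjusted p = 4.27e-06). Its second probe, which shares no run of more than 6 bases with the first, rose at least 1.96-fold in WT (adjusted p = 4.82e-05) and at least 1.78-fold in KO (adjusted p = 0.000168). The change of Tnf did not pass an interaction test, with differences between genotypes (KO minus WT) of -0.28 (SE 0.35) and 0.20 (SE 0.42) on the log2 scale for the probes.

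Tnfsf14 encodes LIGHT, a ligand of the lymphotoxin beta receptor. Its second probe had 5.91, 6.64 and 5.98 in WT control and 7.92, 8.40 and 8.31 in WT injured hips, and 5.65, 6.69 and 6.49 in KO control and 7.68, 8.11 and 7.51 in KO injured hips. One control array of each genotype was undetected, and every injured array lay above every control array. The log2 change was 2.04 in WT (SE 0.25, adjusted p = 0.000339, at least 4.04-fold) and 1.49 in KO (SE 0.28, adjusted p = 0.00161, at least 2.56-fold). After quantile normalization without background correction the KO change of Tnfsf14 was 0.82, under the fold limit. The first probe shares no run over 5 bases with it, was detected on 3 of the 12 arrays and did not pass, with 0.54 in WT (adjusted p = 0.142) and 0.42 in KO (adjusted p = 0.191).

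Tnfsf13b encodes BAFF, a survival factor of B cells. Its second probe was detected on all arrays, with 7.67, 8.26 and 7.77 in WT control and 9.23, 9.17 and 8.90 in WT injured hips, and 7.99, 7.99 and 7.93 in KO control and 9.35, 9.50 and 8.88 in KO injured hips. It rose by 1.20 in WT (SE 0.22, adjusted p = 0.00372) and by 1.28 in KO (SE 0.20, adjusted p = 0.000492), and the third probe, sharing 48 bases with it, rose by 1.23 and 1.21. Without background correction neither probe of Tnfsf13b reached the fold limit, with 0.90 and 0.92 in WT and 1.00 and 0.94 in KO. The first probe, at a different stretch, was detected on 3 arrays, all of them injured, and did not pass, with 0.80 in WT and 0.86 in KO. Tnfsf9 encodes 4-1BBL, a costimulatory ligand. Its fitted values passed in WT (adjusted p = 0.000255) and KO (adjusted p = 3.25e-05), but the probe was detected on no control array and on only 1 WT and 2 KO injured arrays. Its injured values were 5.87, 5.75 and 5.59 in WT and 6.28, 5.99 and 5.75 in KO, close to the detection limit, so no fold is given for WT and the bound in KO is 1.05-fold.

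The control of these ligand genes was not measured, but their promoters can be read. JNK acts on c-Jun, a part of the AP-1 transcription factor, and TNF signalling on NF-kappaB. The 250 bases before each start site were searched on both strands for the AP-1 sequence TGANTCA and for the kappaB consensus in the RefSeq promoter table (build GRCm38.p6), which held 23 promoters for 19 of the 25 superfamily genes. TGANTCA was in 4 of the 23 (17.4%) and in 6.75% of all 32851 promoters, and the kappaB consensus in 2 (8.7%) and in 7.25%. Of the 10 genes upregulated in both genotypes, 6 had an entry, with 7 promoters. TGANTCA was found in those of Tnfsf14 and Tnfsf13b, and the kappaB consensus in none. The other superfamily matches to TGANTCA were in Tnfsf13 and Tnfrsf9, and those to the kappaB consensus in Tnfrsf25 and Tnfrsf9. None of these genes passed in either genotype. A match is a description of letters, not a binding site, and neither factor was measured. The stretches of Tnfsf14 and Tnfsf13b are shown because they are the upregulated members with a match, with the match in capitals, 160 and 127 bases before the start site.
Tnfsf14, chr17:57194182-57194431, minus strand: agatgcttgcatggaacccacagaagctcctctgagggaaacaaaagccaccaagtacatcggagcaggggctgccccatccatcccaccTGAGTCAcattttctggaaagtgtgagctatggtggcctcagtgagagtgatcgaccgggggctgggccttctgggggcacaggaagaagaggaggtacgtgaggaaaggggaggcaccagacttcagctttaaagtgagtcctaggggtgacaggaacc
Tnfsf13b, chr8:10006383-10006632, plus strand: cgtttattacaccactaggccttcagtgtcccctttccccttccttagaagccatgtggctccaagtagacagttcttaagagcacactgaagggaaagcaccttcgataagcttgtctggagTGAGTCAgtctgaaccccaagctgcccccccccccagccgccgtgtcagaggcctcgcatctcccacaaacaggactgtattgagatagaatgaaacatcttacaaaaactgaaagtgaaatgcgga

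Tnfsf11 encodes RANKL, which drives osteoclast formation through RANK. It was detected on all arrays, with 8.67, 8.47 and 8.30 in WT control and 7.69, 7.51 and 8.27 in WT injured hips, and 7.94, 7.82 and 7.68 in KO control and 7.89, 7.48 and 8.37 in KO injured hips. The WT injured arrays all lay below the WT control arrays, although the closest pair nearly met, whereas the KO groups overlapped. The change did not pass in WT (-0.66, SE 0.24, adjusted p = 0.0731) or KO (0.10, SE 0.23, adjusted p = 0.771). Tnfsf13, which encodes APRIL, was detected on all arrays and did not pass, with -0.25 in WT and -0.11 in KO. The probe for the read-through transcript Tnfsf12-tnfsf13 was detected on 1 array only. The ligands TRAIL (Tnfsf10), TWEAK (Tnfsf12), OX40L (Tnfsf4), TL1A (Tnfsf15) and GITRL (Tnfsf18) each had 1 probe on the array under these symbols, and it was detected on none of the 12 arrays.

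**Figure D2:**
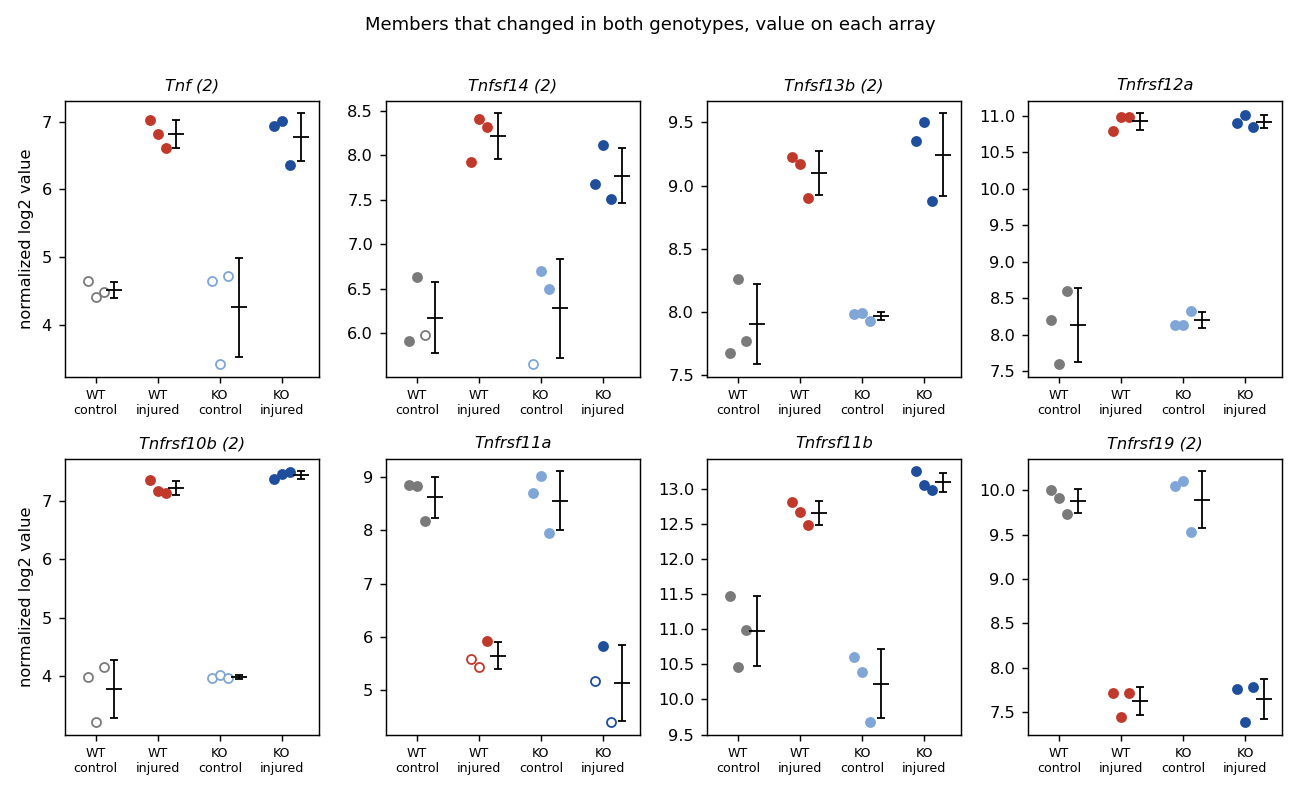
Normalized log2 value of 8 member probes on each of the 12 arrays, with open circles for arrays on which the probe was undetected and black bars for the group mean ± SD (n = 3), each panel on its own scale. In every panel the injured arrays lie apart from the control arrays of the same genotype, above them for Tnf, Tnfsf14, Tnfsf13b, Tnfrsf12a, Tnfrsf10b and Tnfrsf11b and below them for Tnfrsf11a and Tnfrsf19.

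Of the 10 probes for 4 death domain receptors, 4 were upregulated in WT and 8 in KO, and none was downregulated. In genes these were 2 in WT and 3 in KO, and 3 of the KO probes were those of Tnfrsf1a, which read the same stretch. Over all probes 7.55% were upregulated in WT and 9.59% in KO. Tnfrsf10b encodes the mouse TRAIL receptor, which can start apoptosis. Its second probe had 3.98, 3.22 and 4.16 in WT control and 7.35, 7.16 and 7.14 in WT injured hips, and 3.98, 4.03 and 3.97 in KO control and 7.37, 7.45 and 7.49 in KO injured hips. It was undetected on all control arrays and rose at least 2.58-fold in WT (adjusted p = 2.14e-05) and at least 2.84-fold in KO (adjusted p = 1.83e-07). The third probe, which shares 45 bases with it, rose at least 2.09-fold and 2.41-fold, and the first, at a separate stretch, at least 1.63-fold and 1.32-fold. The fourth probe behaved differently. It was detected on all 12 arrays, with 7.17, 6.45 and 6.85 in WT control and 7.13, 7.26 and 7.54 in WT injured hips, and 7.63, 6.80 and 6.44 in KO control and 7.42, 7.74 and 7.35 in KO injured hips. Its groups overlapped in both genotypes, and its change did not pass, with 0.49 in WT (SE 0.24, adjusted p = 0.164) and 0.55 in KO (SE 0.28, adjusted p = 0.149). Why the probes differ was not tested, and the part of the transcript that each probe reads was not determined. The first 30 bases of each probe are printed to show which probes read the same stretch, with capitals for the part that probes 2 and 3 share.
Tnfrsf10b probe 1: ggtgacccttgaggaccacgccccctgtaa
Tnfrsf10b probe 2: ctacgCAGTGAAATCCGGGAGGTTTACTTA
Tnfrsf10b probe 3: CAGTGAAATCCGGGAGGTTTACTTAtcaga
Tnfrsf10b probe 4: ccttgggtactttctctagctcctccacta

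**Figure D3:**
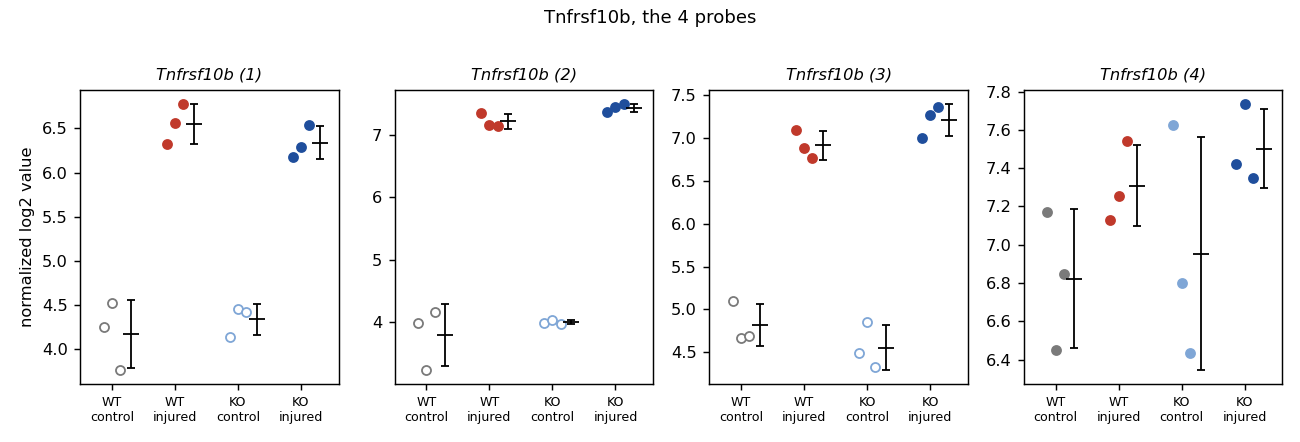
Normalized log2 value of the 4 Tnfrsf10b probes on each of the 12 arrays, with open circles for undetected arrays and black bars for the group mean ± SD (n = 3), each panel on its own scale. Probes 1, 2 and 3 were detected on the 6 injured arrays only, while probe 4 was detected on all 12 and its control and injured groups overlapped.

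Tnfrsf1a encodes TNFR1, the main signalling receptor of soluble TNF. Its 3 probes are almost the same sequence, each shifted from the next by a single base, and share 48 or 49 of 50 bases, so they amount to 1 measurement. Their first 30 bases are shown for that reason, with the common stretch in capitals.
Tnfrsf1a probe 1: tGAAGTTGTGCCTACCTCCTCCGCTTGCAa
Tnfrsf1a probe 2: GAAGTTGTGCCTACCTCCTCCGCTTGCAaa
Tnfrsf1a probe 3: atGAAGTTGTGCCTACCTCCTCCGCTTGCA
The first had 7.44, 6.19 and 7.50 in WT control and 7.92, 7.28 and 7.46 in WT injured hips, and 6.51, 6.70 and 7.06 in KO control and 8.97, 8.24 and 8.26 in KO injured hips. All KO injured arrays lay above the other 9 arrays, while the WT groups overlapped and WT control replicate 2 was the lowest of all 12. The change passed in KO (1.73, SE 0.24, adjusted p = 0.000228) and not in WT (0.51, SE 0.34, adjusted p = 0.317), and the WT value was 0.084 without WT control replicate 2. The other probes gave 1.52 and 1.71 in KO and 0.58 and 0.55 in WT. The difference between the genotypes did not pass its own test (interaction 1.22, SE 0.46, adjusted p = 0.407).

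Tnfrsf21 encodes death receptor 6. Its second probe had 10.09, 10.11 and 9.96 in WT control and 11.25, 11.29 and 10.76 in WT injured hips, and 9.99, 10.19 and 9.40 in KO control and 11.07, 11.21 and 10.87 in KO injured hips. It rose by 1.05 in WT (SE 0.21, adjusted p = 0.00572) and by 1.19 in KO (SE 0.22, adjusted p = 0.00181), just above the fold limit, with no overlap between control and injured arrays of either genotype. The WT call was lost without WT injured replicate 1 or 2, and the KO call without KO control replicate 3. The first probe, which shares no run over 6 bases with the second, had 7.20, 6.79 and 6.93 in WT control and 7.78, 6.84 and 7.003 in WT injured hips, and 7.05, 6.72 and 6.61 in KO control and 8.75, 7.74 and 8.45 in KO injured hips. It passed in KO (1.52, SE 0.26, adjusted p = 0.000914) and not in WT (0.24, SE 0.27, adjusted p = 0.562). Without WT injured replicate 1 the WT value was -0.047. Tnfrsf25 encodes death receptor 3, the receptor of TL1A. It had 6.94, 6.61 and 6.47 in WT control and 6.53, 6.01 and 5.50 in WT injured hips, and 4.32, 5.64 and 5.86 in KO control and 6.43, 6.08 and 6.26 in KO injured hips. The 3 KO control arrays and 1 WT injured array were undetected. It passed in neither genotype (-0.66 in WT, adjusted p = 0.109, and 0.98 in KO, adjusted p = 0.0433, under the fold limit).

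Of the 16 probes for 11 TRAF-binding receptors, 3 were upregulated and 2 downregulated in each genotype. Tnfrsf12a encodes Fn14, the receptor of TWEAK. It was detected on all arrays, with 8.20, 7.60 and 8.60 in WT control and 10.79, 10.98 and 10.98 in WT injured hips, and 8.14, 8.13 and 8.33 in KO control and 10.90, 11.01 and 10.84 in KO injured hips. All injured arrays lay more than 2 log2 units above all control arrays. The log2 change was 2.79 in WT (SE 0.26, adjusted p = 7.61e-05, a 6.90-fold rise) and 2.72 in KO (SE 0.17, adjusted p = 8.72e-07, a 6.57-fold rise), and the interaction was -0.070 (SE 0.31). Among the member probes detected on all 6 WT arrays, it had the largest rise in WT.

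Tnfrsf11a encodes RANK, the receptor of RANKL on osteoclast precursors. It had 8.86, 8.83 and 8.18 in WT control and 5.58, 5.43 and 5.93 in WT injured hips, and 8.70, 9.02 and 7.94 in KO control and 5.17, 5.83 and 4.40 in KO injured hips. It was detected on all control arrays and on only 1 injured array of each genotype. The log2 change was -2.98 in WT (SE 0.25, adjusted p = 3.56e-05) and -3.42 in KO (SE 0.36, adjusted p = 3.44e-05), and with the bound the level was at least 6.75-fold lower in WT injured and at least 6.41-fold lower in KO injured hips. Osteoclast markers moved with it. Of 5 measured, 3 were downregulated in WT (Dcstamp, Oscar and Acp5) and 4 in KO, and the mean log2 value of the list lay between 10.33 and 10.69 on WT control and between 8.63 and 9.49 on WT injured arrays. In KO it lay between 10.46 and 10.75 on control and between 7.98 and 8.67 on injured arrays. Of 9 macrophage markers, 5 were downregulated in WT and 6 in KO by the fitted values, and Cd14, the lipopolysaccharide coreceptor, was upregulated in both. One of those downregulated in each genotype, Fcgr1, was detected on 1 of the 12 arrays and has no measured fold, which leaves 4 in WT and 5 in KO. Their part in the change of Tnfrsf11a was not tested.

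Tnfrsf19 encodes TROY, a receptor known from hair follicles and the nervous system. Its second probe had 9.998, 9.91 and 9.73 in WT control and 7.71, 7.44 and 7.72 in WT injured hips, and 10.04, 10.11 and 9.53 in KO control and 7.77, 7.39 and 7.79 in KO injured hips. It was detected on all arrays and the groups lay far apart, with a change of -2.25 in WT (SE 0.20, adjusted p = 4.9e-05) and -2.24 in KO (SE 0.21, adjusted p = 1.6e-05). The first probe, at another stretch and detected on 5 arrays, all control, did not pass, with -0.53 in WT (adjusted p = 0.103) and -0.77 in KO (adjusted p = 0.0284).

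Tnfrsf18 encodes GITR, a costimulatory receptor of T cells. Its probes share 49 bases and were detected on all 6 injured and no control arrays. The first had 5.34, 4.93 and 4.60 in WT control and 6.85, 6.52 and 6.70 in WT injured hips, and 5.11, 5.30 and 5.34 in KO control and 6.69, 6.78 and 6.65 in KO injured hips. It rose at least 1.80-fold in WT (adjusted p = 0.00059) and at least 1.71-fold in KO (adjusted p = 6.33e-05), and the second at least 1.43-fold and 1.35-fold. Of 6 measured T cell markers none passed in either genotype, with median log2 changes of 0.49 in WT and -0.13 in KO. Of these markers, singled out after their values were seen, Cd2 (0.99, adjusted p = 0.0104) and Cd3d (0.98, adjusted p = 0.0487) lay just under the fold limit in WT, with 0.63 and -0.057 in KO, and Cd3e was undetected on all arrays. The mean log2 value of the list lay between 5.82 and 6.22 on WT control and between 6.40 and 6.61 on WT injured arrays, and between 6.02 and 6.31 on KO control and between 5.96 and 6.21 on KO injured arrays. Their part in the change of Tnfrsf18 was not tested. Tnfrsf1b encodes TNFR2, which responds mainly to membrane-bound TNF. It had 6.45, 5.84 and 5.92 in WT control and 7.18, 6.39 and 6.88 in WT injured hips, and 6.12, 6.23 and 6.05 in KO control and 6.87, 6.90 and 6.91 in KO injured hips. The WT groups overlapped, and 2 WT control arrays were undetected. It did not pass in WT (0.75, SE 0.26, adjusted p = 0.0605) or KO (0.76, SE 0.16, adjusted p = 0.00369, under the fold limit).

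The remaining 6 TRAF-binding receptors did not pass in either genotype. The first probe of Tnfrsf5, the older name of CD40, came closest to the fold limit, with -0.81 in WT (adjusted p = 0.0375) and -0.95 in KO (adjusted p = 0.00126), while its second probe gave -0.15 and -0.17. A further probe of the same gene, which the table lists as Cd40 and which was therefore no member, was detected on all arrays and did not pass, with -0.57 in WT (adjusted p = 0.129) and -0.49 in KO (adjusted p = 0.0730). Of the receptors of BAFF and APRIL, Tnfrsf13c and Tnfrsf13b were detected on all arrays and Tnfrsf17, which encodes BCMA, on none. Tnfrsf13c, the BAFF receptor, had 0.79 in WT (adjusted p = 0.0941) and 0.77 in KO (adjusted p = 0.0268), and the 2 probes of Tnfrsf13b, which encodes TACI, lay between -0.18 and 0.55. Tnfrsf4 (OX40) had 0.24 and 0.69, Tnfrsf9 (4-1BB) -0.10 and -0.32, and the probes of Tnfrsf19l (RELT) lay between -0.18 and 0.31. The 3 probes of Tnfsf5ip1, the chaperone, did not pass either, with -0.44 to 0.017 in WT.

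Among the decoy receptors, Tnfrsf11b encodes osteoprotegerin, the soluble decoy of RANKL. It was detected on all arrays, with 11.47, 10.47 and 10.99 in WT control and 12.82, 12.67 and 12.48 in WT injured hips, and 10.61, 10.40 and 9.68 in KO control and 13.25, 13.05 and 12.98 in KO injured hips. Every injured array lay above every control array, and the KO injured arrays above the WT injured arrays. It rose by 1.68 in WT (SE 0.26, adjusted p = 0.00144, 3.20-fold) and by 2.86 in KO (SE 0.24, adjusted p = 7.07e-06, 7.28-fold). The difference of 1.19 (SE 0.38) did not pass (adjusted p = 0.347). In the RANK system, then, the decoy was upregulated and the receptor downregulated in both genotypes, while the change of the ligand passed in neither. Chondrocyte markers moved in the same direction as Tnfrsf11b. Of 8 measured, 6 were upregulated in each genotype, Matn1, Hapln1, Sox9 and Acan among them in WT, and the mean log2 value of the list lay between 10.27 and 10.98 on WT control and between 12.03 and 12.36 on WT injured arrays. In KO it lay between 10.23 and 10.92 on control and between 12.13 and 12.34 on injured arrays. All 10 skeletal muscle markers fell in both genotypes. The part of either list in the change of Tnfrsf11b was not tested.

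Tnfrsf22 encodes a decoy TRAIL receptor of the mouse. Its first probe had 8.71, 7.33 and 8.23 in WT control and 8.63, 8.25 and 8.33 in WT injured hips, and 7.93, 7.71 and 7.76 in KO control and 9.25, 8.93 and 9.08 in KO injured hips. It passed in KO (1.29, SE 0.17, adjusted p = 0.000198) and not in WT (0.31, SE 0.32, adjusted p = 0.521), where the groups overlapped and WT control replicate 2 was again the lowest of the 12 arrays. Without that array the WT value was -0.067. The second probe did not pass, with 0.53 in WT and 0.43 in KO. Tnfrsf22 is closely related to Tnfrsf23, and whether the probes tell them apart was not tested. Tnfrsf26, a less studied mouse receptor, had 5.05, 5.43 and 5.43 in WT control and 6.59, 6.06 and 6.63 in WT injured hips, and 3.94, 5.60 and 5.75 in KO control and 6.87, 6.64 and 7.05 in KO injured hips. It was undetected on all control arrays and rose at least 1.49-fold in WT (adjusted p = 0.00586) and at least 1.89-fold in KO (adjusted p = 0.00543). The WT call was lost without WT control replicate 1.

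The study also allowed WT and Mapk9 KO cartilage to be compared directly. By limma, none of the 44 member probes differed between the genotypes in control hips (0.119% of all probes did), in injured hips (0.181%) or in their response to injury (0% of all probes passed the interaction). The calls over all probes depended on single arrays, rising from 25 to 412 in control hips without WT control replicate 3 and from 38 to 154 in injured hips without WT injured replicate 1, and those of the interaction from 0 to 242 without WT control replicate 3. None of them was a member. At an unadjusted p under 0.05 there were 5, 8 and 9 of the 44 member probes (11.4%, 18.2% and 20.5%), beside 6.46%, 12.6% and 9.94% of all probes. All Tnfrsf1a probes, which amount to 1 measurement, are counted singly in the 8 and in the 9. The smallest adjusted p of a member was 0.443 for Tnfrsf25 in control hips, 0.219 for Tnfrsf22 in injured hips and 0.325 for Tnfrsf25 in the interaction. In injured hips Tnfrsf21 was 1.11 higher in KO at its first probe (SE 0.30, adjusted p = 0.229), and this value passed with the replicate number as a block (adjusted p = 0.0443), a fit that also raised the calls over the whole table from 38 to 188 probes. Tnfrsf1a was 0.93 higher (SE 0.24, adjusted p = 0.221, under the fold limit with the block too, where its adjusted p = 0.0376). Tnfsf11 was 0.67 lower in KO control hips (adjusted p = 0.587), with all KO control arrays below all WT control arrays.

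The 5 probes that passed in KO and not in WT were those of Tnfrsf1a, the first of Tnfrsf21 and the first of Tnfrsf22. In each the WT estimate was positive but smaller, and the interaction lay between 0.95 and 1.28 on the log2 scale with adjusted p of 0.338 to 0.482. The standard errors were 0.39 to 0.46. Without background correction the first Tnfrsf21 probe (0.99) and the first Tnfrsf22 probe (0.98) no longer reached the fold limit in KO, while the Tnfrsf1a probes did. With the replicate number as a block, 112 of all 21004 probes and none of the members passed the interaction. The first Tnfrsf21 probe then came closest (1.28, SE 0.25, adjusted p = 0.0558), and the other 4 probes had adjusted p of 0.124 to 0.240. A difference between the genotypes in these receptors did not pass the interaction test in either fit, which does not show that there was none. The interaction of Tnfrsf25, 1.64 (SE 0.49, adjusted p = 0.325), rests on KO control arrays on which the probe was undetected. Among members that passed in both genotypes, the interaction of the second Tnfrsf10b probe was 0.016 (SE 0.30). It was 0.0072 (SE 0.28) for the second Tnfrsf19 probe and -0.45 (SE 0.49) for Tnfrsf11a.

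**Figure D4:**
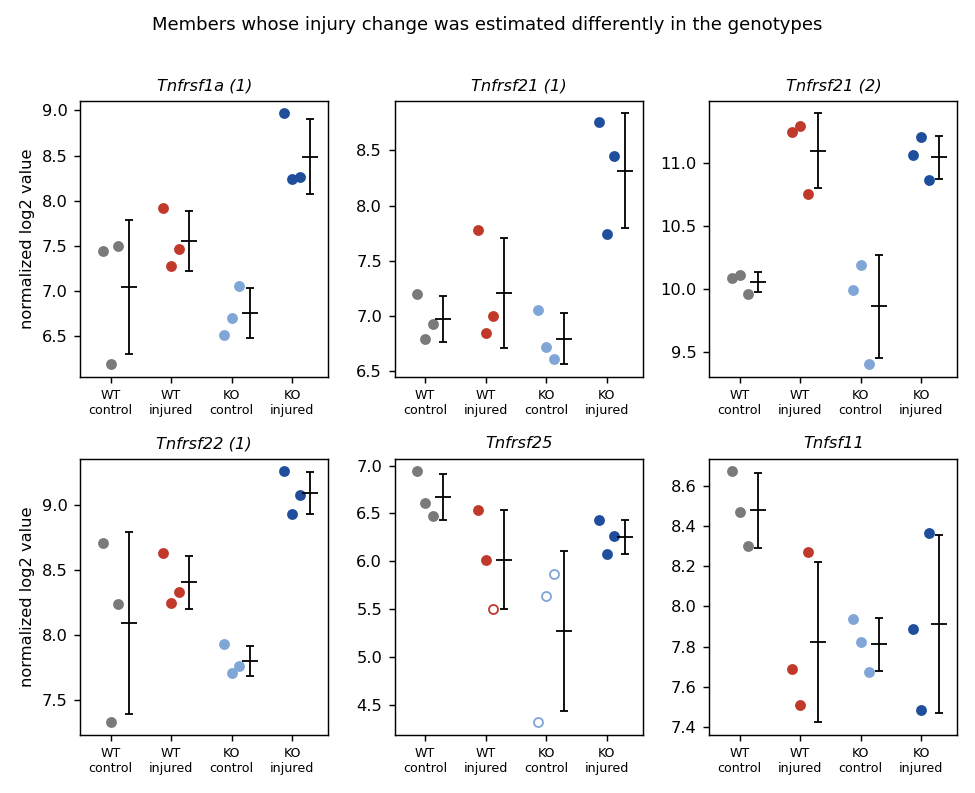
Normalized log2 value of 6 member probes on each of the 12 arrays, with open circles for undetected arrays and black bars for the group mean ± SD (n = 3), each panel on its own scale. Tnfrsf1a, the first Tnfrsf21 probe and Tnfrsf22 were higher on every KO injured array than on any KO control array while their WT groups overlapped, Tnfrsf21 probe 2 rose in both genotypes, and no interaction passed the test.

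Genes that act with the family were taken from lists, with the probe of highest mean signal for each gene. The list of superfamily genes with other symbols had 7 measured genes, including the probe named Cd40, whose gene is also a member as Tnfrsf5. Of these only Fas, a death receptor, passed, with a log2 change of 1.48 in WT (adjusted p = 0.000498) and 1.53 in KO (adjusted p = 7.78e-05). Of 18 adaptors and kinases that carry the receptors' signal, none passed in WT, and Map3k14, which encodes the NF-kappaB-inducing kinase NIK and was singled out after its value was seen, passed in KO (1.07, adjusted p = 0.000676). Of 17 genes that limit receptor signalling or control death, 4 were upregulated in each genotype and none was downregulated. In WT these were Tnfaip3, which encodes the NF-kappaB inhibitor A20 (2.02, adjusted p = 8.09e-05, at least 4.00-fold), Nfkbia, which encodes IkappaB alpha (1.61, adjusted p = 0.000462), Timp3, an inhibitor of the protease that sheds TNF (1.43, adjusted p = 0.00123), and Cflar, an inhibitor of caspase-8 (1.28, adjusted p = 0.00226). The median log2 change over each list in WT was -0.36 for superfamily genes with other symbols, -0.093 for adaptors and kinases and 0.23 for brakes.

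Of 14 genes known to be induced by TNF, 7 were upregulated and none downregulated in WT, and 8 and 1 in KO, with median log2 changes of 1.13 and 1.31. One of the 7 in WT, Il6, was undetected on all WT arrays and has no measured fold there, which leaves 6. The chemokine gene Cxcl2 rose at least 25.1-fold in WT (adjusted p = 1.9e-06), Cxcl1 at least 99.8-fold (adjusted p = 6.07e-06) and Ccl2 at least 2.80-fold (adjusted p = 5.29e-05). Ier3, a stress response gene, rose by 3.50 on the log2 scale (adjusted p = 5.9e-06). These genes respond to other stimuli as well, and whether TNF acted on them was not measured. Blood cell markers were mixed. Of 9 neutrophil markers 4 were upregulated in WT and 3 in KO, of 7 B cell markers 1 was upregulated in WT, and 1 was upregulated and 1 downregulated in KO, and of 8 erythroid markers 2 were downregulated in each genotype. These counts read only the brightest probe of each marker. Dimmer probes of the neutrophil markers Mpo and Ltf and of the macrophage marker Lyz2 were upregulated in both genotypes, though the brightest were not. The same held in WT for a dimmer probe of the B cell marker Cd79b. Of 9 endothelial markers 1 was upregulated in WT and none in KO, and of 8 osteoblast markers 1 was upregulated and 2 downregulated in WT and 1 and 3 in KO. Their part in the changes of the members was not tested.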

How the data were processed

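The authors deposited bead intensities of 45281 probes on Illumina mouse arrays, each with a detection p-value, and a table of log2 values for 21004 probes, background-corrected with negative controls and normalized with vsn. The deposited log2 values were used for all tests. The deposited intensities served for alternative normalizations and the deposited p-values for detection. Intensities show signal, not copies of RNA, so levels of different probes were not compared as amounts of RNA. Probes were ranked by signal only to choose or name a probe of a gene. The 3 arrays per group limit the precision. No deposited column held comparisons by the authors.

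In R 4.3.3, limma 3.58.1 (functions lmFit and eBayes) was fitted for each comparison to the 2 groups compared, the interaction on all 12 arrays, with Benjamini-Hochberg adjustment over 21004 probes. A probe passed at a fold above 2 and an adjusted p under 0.05, and the interaction at the adjusted p alone. The fit was also run on simulated data with changes of known size, and the outcome is not given here. A member gene counts as passed when 1 of its probes did, and a list gene when its brightest probe did. Fitted values decided calls also where a bound is printed. Members and lists were chosen with earlier results of these data known. All members are accounted for. Array values of at least 1 probe are given for those with a probe past the threshold, for Tnfsf9 on the injured arrays only. They are also given, whatever the result, for Tnf, Tnfsf11, Tnfrsf1a, Tnfrsf1b, Tnfrsf11a, Tnfrsf11b and Tnfrsf12a, and beside these for Tnfrsf25. At most 4 genes per list are named, those past the threshold with the smallest adjusted p in WT, beside Map3k14, Cd2, Cd3d, Cd3e, Il6, Fcgr1, Mpo, Ltf, Lyz2 and Cd79b, chosen after their values were seen. Current names of 42 member probes were matched by accession, 1 by an older symbol and 1 by symbol in a RefSeq table, which also gave promoters (build GRCm38.p6).

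Each replicate is a pool of animals. Samples with the same replicate number deviated together from their groups (correlations of 0.153 to 0.390 over 18 pairs), and others did not (-0.289 to 0.0825 over 36 pairs), so the numbers were taken as pairing the samples. The main fits did not use this pairing, which entered only as a block among the alternatives. The alternatives changed the normalization (neqc with an offset of 16, quantiles on uncorrected signals, or array medians set equal), the probes (those detected on 3 or more arrays, or 1 per gene, the brightest), the samples (a fit over all 12 arrays, or leaving each array out), the covariates (a block for the replicate number, or for the number in the label codes) and the call (the methods' t-test, or no fold limit).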

Additional observations from a re-analysis of the deposited data

How the results depend on the processing

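Counts of member probes past the threshold moved with the normalization and the background correction, which changed together in the next setting. Quantile normalization without background correction, which keeps the background in the signal and shrinks changes of dim probes, gave 6 member probes against 17 in WT and 9 against 22 in Mapk9 KO. Calls over the whole table fell as well, from 3086 to 1141 in WT and from 3934 to 1771 in KO. In both genotypes the calls lost were those of both Tnf probes, the first and the third Tnfrsf10b probe, both Tnfrsf18 probes, Tnfrsf26, the second and the third Tnfsf13b probe and Tnfsf9. Also lost were the second Tnfrsf21 probe in WT, and the first Tnfrsf21 probe, the first Tnfrsf22 probe and Tnfsf14 in KO. All of these kept their direction and an adjusted p under 0.05 but fell below the fold limit, Tnf with log2 changes of 0.99 and 0.81 in WT and 0.91 and 0.80 in KO. With the highest-mean probe of each gene alone, 26 member probes were tested, and 11 passed in WT and 13 in KO. In genes this was 11 against 12 in WT and 13 against 14 in KO. The gene lost in both was Tnfrsf10b, whose highest-mean probe is the fourth, with 0.49 in WT (adjusted p = 0.164) and 0.55 in KO (adjusted p = 0.149) over the full table. With each array left out the counts lay between 15 and 19 in WT and between 22 and 24 in KO. The other alternatives gave 14 to 18 in WT and 19 to 29 in KO.

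With the replicate number as a block, 1 member passed the genotype effect in injured hips (Tnfrsf21, first probe) and 0 without it, while the calls over all probes rose from 38 to 188. The pairing changed no other call, and no alternative run, the methods' t-test among them, gave a call for genotype in control hips or for the interaction. The t-test, the fold limit and the fit over all 12 arrays are no alternatives for the interaction. With single arrays left out, no member passed a genotype effect or the interaction, while the calls over all probes ranged from 17 to 412 in control hips, from 23 to 154 in injured hips and from 0 to 242 for the interaction. Arrays were also left out for the injury effects of the probes that passed in either genotype and of Tnfrsf1b and Tnfsf11. Among the values of these probes that had not passed, 3 changed sign, and the remaining uncalled member probes were not followed in this way. The first Tnfrsf21 probe ranged from -0.047 (without WT injured replicate 1) to 0.42 in WT, the first Tnfrsf22 probe from -0.067 (without WT control replicate 2) to 0.62 in WT, and Tnfsf11 from -0.13 (without KO injured replicate 3) to 0.31 in KO. Beyond the setting without background correction, calls were lost for Tnfsf9 in WT (neqc), the second Tnfrsf18 probe (neqc and without WT injured replicate 2 in WT, t-test in KO), the second Tnfrsf21 probe (neqc in WT, and arrays named above), Tnfrsf26 (t-test in both genotypes), the third Tnfsf13b probe in WT and Tnfsf14 in KO (t-test). Once the fold limit was dropped, Tnfrsf1b, Tnfrsf4, Tnfrsf13c, Tnfrsf25 and the first probes of Tnfrsf5, Tnfrsf19 and Tnfsf13b also passed in KO (29 against 22 member probes, and 8045 against 3934 of all probes), and the first Tnfrsf5 probe in WT (18 against 17, and 5319 against 3086). The causes were not tested. Changes of probes undetected in control hips have no measured lower level, so their fitted sizes are not firm. The bounds hold for the deposited normalization only. Without background correction the changes of both Tnf probes were smaller than their bounds in each genotype.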
